A study of Mus musculus with 2 samples.

Results

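The genes described here encode the proteins of the mitochondrial ribosome. They were taken as all genes whose RefSeq mouse symbol begins with Mrpl (large subunit by name) or Mrps (small subunit by name), after the transcript accession of each array probe had been matched to a symbol. The table held 84 such symbols, of which 6 are pseudogenes without a probe. The other 78 were on the array, among 23462 named genes: 49 named Mrpl and 29 named Mrps. Of these, 73 had a value on both arrays (44 Mrpl and 29 Mrps). The 5 without one, all Mrpl, had been left out because their spot carried a flag of the scanner software, and their values are given separately below. No member was too dim to measure.

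The mitochondrial ribosome, or mitoribosome, translates the few messenger RNAs of the mitochondrial genome, which code for membrane subunits of the respiratory chain and the ATP synthase. Its ribosomal RNAs are transcribed from mitochondrial DNA, whereas every one of its proteins is encoded in the nucleus, made in the cytosol and imported. The small subunit decodes the messenger RNA and the large subunit joins the amino acids, and mammalian mitoribosomes carry many proteins that bacterial ribosomes lack. T cells enlarge their mitochondrial mass and protein synthesis after activation.

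The RNA came from CD8 T cells of C57BL/6 mice. Naive cells (CD44 low, CD62L high) from the spleen were activated for 2 days by plate-bound antibodies, 3 µg/ml against TCR-β and 1 µg/ml against CD28, together with interleukin-2 at 10 ng/ml. Both cultures shared this treatment. One also received 1 µM prednisolone, a synthetic glucocorticoid, and the other vehicle, and both were then moved to a new plate with interleukin-2 for 3 days before RNA was taken on day 5. There was 1 array for each condition, the labels give neither age nor the number of mice per culture, and no difference below could be tested between cultures.

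The arrays shared a slide, and 53.5% of spots on each passed the software's test for being well above background. Values are log2 of the processed spot intensity minus the array's own 75th percentile (400.4 intensity units for vehicle and 386.9 for prednisolone). Differences are prednisolone minus vehicle, so 1 stands for 2-fold higher, and ± is the scanner software's technical error, which was 10.0% of the signal for the median member spot on either array. The error leaves out the spread between cultures. Among CD8 T cell markers, 8 of 10 had a value and 2 carried flags. Cd8a was −0.01, Thy1 0.13, Cd3e −0.42 and Cd247 −0.95. Of 19 markers of CD4 T, B, myeloid and NK cells, 8 were measured on both arrays, with Cd4 at 640.5 and 655.8 units (0.08), Foxp3, of regulatory T cells, at 93.8 and 53.8 units (−0.75) and Pax5 at 14.5 and 13.2 units, while Ms4a1, Cd79a, Lyz2 and Adgre1 were on neither array well above background. Cd68, a myeloid marker, was lower with prednisolone (1045 units with vehicle and 217.3 with prednisolone), whereas the myeloid markers Csf1r (0.23) and Itgam (0.02) were not lower and Cd14 was above background with prednisolone only. Hba-a1, a haemoglobin gene used as an erythroid marker, was higher (47.2 and 715.0 units). The part of these markers' cells in the results below was not tested. In RNA from a whole culture, fewer cells of a type and less RNA per cell cannot be told apart.

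Across the mitoribosome the differences were small and mostly positive. The median of the 73 members was 0.27, with quartiles of 0.01 and 0.44, whereas the median of all 11969 genes measured on both arrays was 0.00. Above 0 were 56 of the 73 members (76.7%), compared with 50.1% of all genes measured. Only Mrpl20 was at least 2-fold higher, where 5.76% of all genes were, and none was at least 2-fold lower, where 6.62% were. At least 1.5-fold higher were 11 members (14.5% of all genes), a share close to that background, and 1 member, Mrps16, was at least 1.5-fold lower (15.2% of all genes). Their SD over genes was 0.34, against 0.73 over all genes. Most members are bright, and among the 7535 brighter genes the SD was 0.59, 53.3% lay above 0, and the shares at least 2-fold apart were 4.15% (higher) and 3.98% (lower). The shares at least 1.5-fold apart were 13.4% (higher) and 11.3% (lower). Of the 71 members among these brighter genes, 54 lay above 0, 1 was at least 2-fold higher and 0 lower, and 11 were at least 1.5-fold higher and 1 lower.

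The sign of the shift held under every setting tried, although its size did not. The median of all members ran from 0.22 to 0.32 under other scalings, filters and background corrections, and was 0.51 when the arrays were scaled on the 8 spike-in control probes. Spike-in scaling adds 0.23 to every gene and moved the median of all genes to 0.24. Of the 12 alternatives, those that multiply each array by a constant, spike-in scaling among them, cannot change the members' median relative to all genes. It stayed 0.27 above that of all genes there and lay between 0.23 and 0.32 above it under the others. Of single members, 49 were above 0 and 7 below 0 under each of the 12 alternatives that gave them a value, and 17 changed sign under at least 1.

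**Figure D1:**
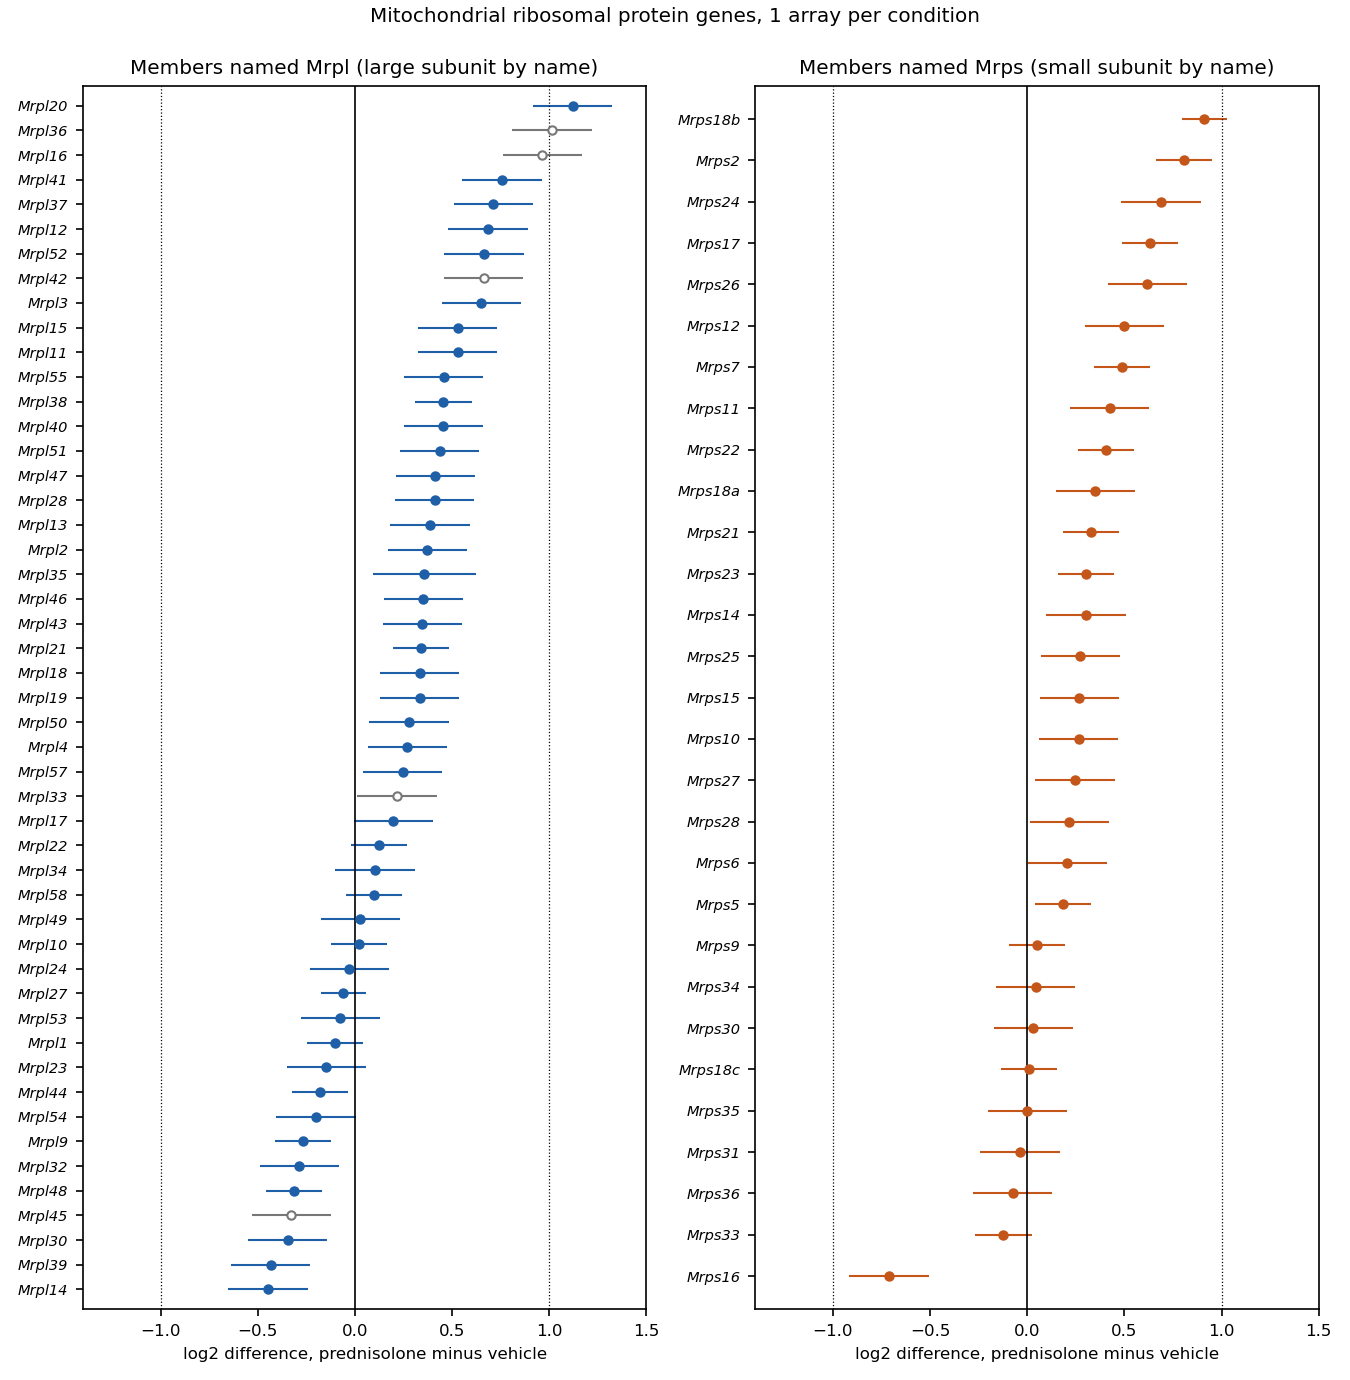
Log2 difference (prednisolone minus vehicle) of each mitochondrial ribosomal protein gene on the array, named Mrpl on the left and Mrps on the right, sorted by value. Points are genes, bars are the software's technical error, dotted lines mark 2-fold, and open grey points are the 5 genes whose spot was flagged; 56 of the 73 filled points lie to the right of 0.

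The large and small subunits overlapped. The median was 0.31 for the 44 large subunit members and 0.27 for the 29 small subunit members, a difference of 0.04. The means came in the opposite order, 0.22 for the large and 0.26 for the small subunit. By range, 43 of 44 large members lay inside that of the small subunit and 28 of 29 small members inside that of the large. The lower end of the small subunit's range is set by Mrps16 alone (−0.71), and its next lowest member was Mrps33 (−0.12). In the large subunit the 5 lowest members lay between −0.45 and −0.29. The share of members above 0 was 31 of 44 for the large subunit and 25 of 29 for the small, where 50.1% of all genes lie above 0. At least 1.5-fold higher were 6 of 44 large and 5 of 29 small members, where 14.5% of all genes were. The gap between the medians was between 0.01 and 0.07 under all alternatives, spike-in scaling included, since scaling shifts both subunits alike.

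Some names mislead about the subunit. In the assembled mitoribosome the products of Mrps18a and Mrps30 sit in the large subunit, Mrps36 encodes a component of the α-ketoglutarate dehydrogenase complex, and Dap3, Ptcd3, Chchd1, Aurkaip1 and Gadd45gip1 encode ribosomal proteins under other names, the last of them in the large subunit. Placing the genes by structure gave a median of 0.28 for 47 large subunit genes and 0.27 for 30 small subunit genes. Mrps18a was 0.35 ± 0.20, Mrps30 0.03 ± 0.20 and Mrps36 −0.07 ± 0.20. Of the 5 genes with other names, Ptcd3, which encodes a pentatricopeptide repeat protein of the small subunit, was 386.6 units with vehicle and 569.3 with prednisolone (0.61 ± 0.12, 3 probes between 0.47 and 0.72). The GTP-binding small subunit protein gene Dap3 was −0.17 ± 0.20, Chchd1 0.16 ± 0.20, Aurkaip1 −0.02 ± 0.14 and Gadd45gip1 −0.22 ± 0.20, so 3 of these 5 lay below 0.

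**Figure D2:**
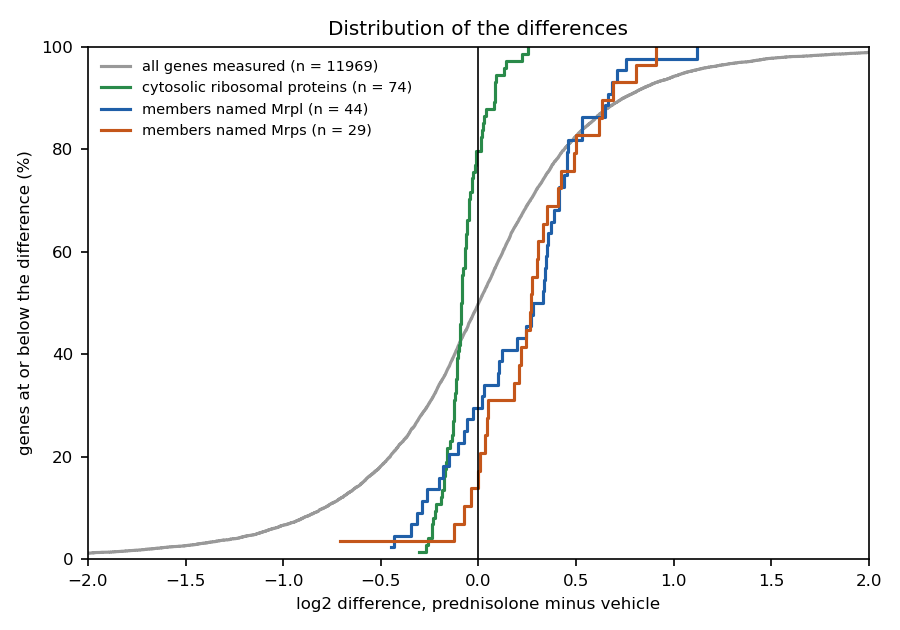
Cumulative share of genes (vertical axis, %) at or below each log2 difference (horizontal axis) for all measured genes, cytosolic ribosomal proteins and members named Mrpl or Mrps. The medians of the mitochondrial subunits are close (0.31 for Mrpl and 0.27 for Mrps) and to the right of all genes (0.00). Their curves are apart at 0, with 31 of 44 Mrpl and 25 of 29 Mrps members above it (50.1% of all genes). The cytosolic ribosomal proteins rise steeply around −0.09.

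Proteins classed as having a bacterial counterpart (bacterial-type) and those classed as mitochondria-specific had medians close to each other. Mrps18b, a paralog of a bacterial protein, was placed in the mitochondria-specific class and Mrps18c in the bacterial-type class. In the large subunit the median was 0.33 for 27 bacterial-type members and 0.28 for 17 mitochondria-specific members. In the small subunit it was 0.29 for 16 and 0.26 for 10. Above 0 were 19 of 27, 12 of 17, 15 of 16 and 8 of 10 members of these 4 classes in that order. Over all genes measured, 50.1% lay above 0. The 74 measured genes of cytosolic ribosomal proteins, the ribosome of the rest of the cell, had a median of −0.09 with 59 below 0 and an SD over genes of 0.11. Their sign turned under spike-in scaling (0.15) and quantile normalization (0.00, just above 0), but in no setting did their median reach that of either mitochondrial subunit.

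Among large subunit members Mrpl20 was highest. The bacterial counterpart of its product binds the large ribosomal RNA early in assembly of the bacterial ribosome. The single probe of Mrpl20 read 9147 units with vehicle and 19228 with prednisolone, a 2.18-fold difference (1.12 ± 0.20). It was at least 2-fold higher under all 12 alternatives (1.07 to 1.36), although the filters and the choice of probe cannot alter a single bright probe. Mrpl41 (3759 and 6140 units, 0.76 ± 0.20) and Mrpl37 (2249 and 3560 units, 0.71 ± 0.20), both encoding mitochondria-specific proteins, followed. Mrpl12 was 6484 and 10074 units (0.69 ± 0.20). Its product forms the flexible stalk that recruits translation factors and has also been reported to bind the mitochondrial RNA polymerase. Mrpl52 was 9402 and 14404 units (0.67 ± 0.20), and Mrpl3, whose product lies near the peptidyl transferase centre, was 4083 and 6193 units (0.65 ± 0.20). All 6 of these members were at least 1.5-fold higher, each on 1 probe.

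At the low end of the large subunit, the array read more with vehicle. Mrpl14, whose product contributes to the face that meets the small subunit, was 13871 units with vehicle and 9827 with prednisolone (−0.45 ± 0.20). Mrpl39, which encodes a protein related to threonyl-tRNA synthetases, was 3449 and 2467 units (−0.43 ± 0.20). Mrpl30 was 8709 and 6621 units (−0.35 ± 0.20). Mrpl48 was 5598 and 4355 units, with both of its probes at −0.31. Mrpl32 was 3266 and 2587 units (−0.29 ± 0.20). These 5 values each exceeded the technical error but none reached 1.5-fold. Spike-in scaling brought Mrpl14 to −0.21, Mrpl39 to −0.20, Mrpl30 to −0.11, Mrpl48 to −0.08 and Mrpl32 to −0.05. All of these except Mrpl14 then lay within their technical error.

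Small subunit members spread from Mrps18b down to Mrps16. Mrps18b was 2366 units with vehicle and 4301 with prednisolone (0.91 ± 0.12, 1.88-fold), and its 3 probes lay between 0.88 and 0.94. Mrps2 was 531.0 and 897.2 units (0.81 ± 0.14), with probes at 0.80 and 0.82. Under spike-in scaling both passed 2-fold (1.15 and 1.04). Mrps24, whose product lines the entry of the messenger RNA channel, was 2902 and 4517 units (0.69 ± 0.20). Mrps17 was 1362 and 2041 units (0.63 ± 0.14) and Mrps26 8646 and 12818 units (0.62 ± 0.20). Mrps12, the gene of a decoding-centre protein, was 3617 and 4939 units (0.50 ± 0.20).

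Mrps16 stood below the rest. It read 33157 units with vehicle and 19574 with prednisolone, 1.64-fold lower (−0.71 ± 0.20), on 1 probe, and between −0.76 and −0.48 under the 12 alternatives. Its product is the mitochondrial form of a small subunit protein needed for assembly in bacteria. The next lowest members were Mrps33 (−0.12 ± 0.15), Mrps36 (given above), Mrps31 (−0.04 ± 0.20) and Mrps35 (0.00 ± 0.20), all within their technical error. At the other end of the brightness range Mrpl35, of the large subunit, was the dimmest member (29.0 and 35.9 units, 0.36 ± 0.26).

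The 3 genes of the Mrps18 family, paralogs of a single bacterial protein, differed among themselves. Mrps18b, described above, was 0.91 ± 0.12. Mrps18a was 2387 and 2942 units (0.35 ± 0.20). Mrps18c was 6715 units with vehicle and 6535 with prednisolone (0.01 ± 0.14, probes at −0.04 and 0.06). Mrps18b thus lay above both paralogs by more than the technical errors, which do not include the spread between cultures.

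Members at shared sites of the ribosome were not uniform either; these sites were picked after the values were seen. Of the stalk genes, Mrpl12 and Mrpl11 (0.53 ± 0.20) were higher and Mrpl10 was 0.02 ± 0.14. Around the exit tunnel, through which the new protein leaves, Mrpl47 was 0.41 ± 0.20, Mrpl17 0.20 ± 0.20, Mrpl22 0.12 ± 0.14, Mrpl24 −0.03 ± 0.20 and Mrpl23 −0.15 ± 0.20, a median of 0.12. In the central protuberance Mrpl55, Mrpl38 and Mrpl40 were all 0.46, Mrpl46 0.35 ± 0.20, Mrpl18 0.33 ± 0.20, Mrpl58 0.10 ± 0.14, Mrpl27 −0.06 ± 0.12 and Mrpl48 was given above, a median of 0.34. Mrpl58 encodes a peptidyl-tRNA hydrolase that releases stalled chains. Mrps6, a small subunit gene, was 2406 and 2683 units (0.21 ± 0.20).

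The 5 flagged members were bright. On the prednisolone array the software had marked the ring of local background around each of these spots as an outlier, and no flag fell on the spot itself. The spots were between 138.0 and 910.2 times as bright as that ring. Kept in, Mrpl36 was 3212 units with vehicle and 6273 with prednisolone (1.02 ± 0.20), Mrpl16, whose product lies close to the peptidyl transferase centre, was 2976 and 5611 units (0.96 ± 0.20), and Mrpl42 was 4830 and 7386 units (0.66 ± 0.20). Mrpl33 was 25098 and 28178 units (0.22 ± 0.20). Mrpl45, which tethers the ribosome to the inner membrane, was 5526 and 4255 units (−0.33 ± 0.20). With them the large subunit had a median of 0.33, and Mrpl20 and Mrpl36 were the 2 members past 2-fold among 78. With flagged spots kept, 5.84% of all genes were at least 2-fold higher.

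Probe agreement could be judged for 21 members with more than 1 probe. In 19 of them all probes lay on the same side of 0, and the widest gap between probes of 1 gene was 0.48, for Mrps23 (0.06 and 0.54). The other 52 members rest on 1 probe each. Against their technical errors, 45 of 73 members were higher by more than the error (34.9% of all genes were) and 8 were lower by more than it (34.1% of all genes).

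The assembly of the mitoribosome requires GTPases, RNA helicases and enzymes that modify its ribosomal RNA. Of 30 listed assembly factor genes, 28 had a value, with a median of 0.35 and 16 above 0 (57.1%, near the 50.1% of all genes). A stricter filter on dim probes kept 19 of them, without Mrm3, Rcc1l and Fastkd2, and gave a median of 0.17 with 10 above 0. They were far more spread than the ribosomal proteins (SD over genes 0.63). At least 2-fold higher were 5 of 28, where 5.76% of all genes were, and 1 was at least 2-fold lower (6.62% of all genes). Under the stricter filter 2 of 19 were at least 2-fold higher (4.15% of brighter genes) and 0 at least 2-fold lower (3.98%). Fastkd5, which acts in maturing mitochondrial transcripts, was 788.6 units with vehicle and 1997 with prednisolone (2.62-fold, 1.39 ± 0.20). Mrm3, a methyltransferase of the large ribosomal RNA, was 141.2 and 350.1 units (2.57-fold), whereas its relatives Mrm2 and Mrm1 were 0.46 ± 0.21 and −0.07 ± 0.20. Trub2 was 436.6 and 1027 units (1.28 ± 0.16, probes at 1.01 and 1.56).

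Trub2 belongs with Rpusd3, Rpusd4, Rcc1l, Fastkd2 and Ngrn to a module that modifies the large ribosomal RNA by pseudouridylation, a grouping made after the values were seen. Rcc1l was 99.3 and 211.0 units (1.14 ± 0.15) and Fastkd2 260.9 and 527.1 units (1.06 ± 0.20). Rpusd3 was 0.36 ± 0.14 and Ngrn 0.24 ± 0.20, while Rpusd4 was −0.47 ± 0.20, so 5 of the 6 genes were above 0. Another background correction (normexp) took Trub2 to 0.84, Rcc1l to 0.78 and Fastkd2 to 0.89, below 2-fold, and left Fastkd5 (1.28) and Mrm3 (1.06) above it.

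Afg3l2 was the lowest assembly gene. It encodes a subunit of the protease of the inner membrane that cleaves the Mrpl32 protein to its mature form. It read 689.3 units with vehicle and 311.7 with prednisolone (2.14-fold lower, −1.10 ± 0.15, probes at −1.22 and −0.97), −0.76 with normexp and −0.86 under spike-in scaling, and it was past 2-fold in 8 of the 12 alternatives. The gene of its partner subunit, Spg7, was −0.07 ± 0.14, and Mrpl32 itself was −0.29 as given above.

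Translation factors and the genes that express the mitochondrial genome had medians similar to the ribosomal proteins. Of 20 listed translation factor genes 18 had a value (median 0.33, 13 above 0, none 2-fold apart). The highest was Qrsl1, at 155.9 and 301.0 units (0.999 ± 0.21). It encodes a subunit of the amidotransferase that completes glutaminyl-tRNA, and the other subunit genes were Gatc at 0.75 ± 0.15 and Gatb at 0.44 ± 0.16. The probes of Gatc lay at 0.48 and 1.01, and it was 0.42 with normexp and 0.48 on its brightest probe. Lrpprc, whose product stabilises mitochondrial messenger RNAs, was 312.5 and 558.4 units (0.89 ± 0.13) on 3 probes. Mtrf1, a release factor gene, was lowest at −0.31 ± 0.21, followed by the initiation factor gene Mtif2 at −0.17 ± 0.11, whose probes ran from −0.56 to 0.20 and whose sign turned with the stricter filter (0.06) and on the brightest probe (0.20).

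Of 18 listed genes of mitochondrial DNA maintenance and transcription, 17 had a value (median 0.22). Above 0 were 14 of them, where 50.1% of all genes were. Elac2, which trims transfer RNA ends from mitochondrial transcripts, was 648.2 units with vehicle and 1397 with prednisolone (2.23-fold, 1.16 ± 0.20). Tfb2m, a transcription initiation factor gene, was 435.9 and 787.4 units (0.90 ± 0.20), Polg, the DNA polymerase gene, was 377.7 and 633.3 units (0.80 ± 0.12), and the RNA polymerase gene Polrmt was 0.63 ± 0.20. Polg2 was −0.14 ± 0.14 and Hsd17b10, which encodes a subunit of the enzyme that cuts transfer RNA 5′ ends, was 8043 and 5819 units (−0.42 ± 0.20). None of the 13 messenger RNAs of the mitochondrial genome had a probe named through the table, so the templates of the mitoribosome are not analysed here.

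**Figure D3:**
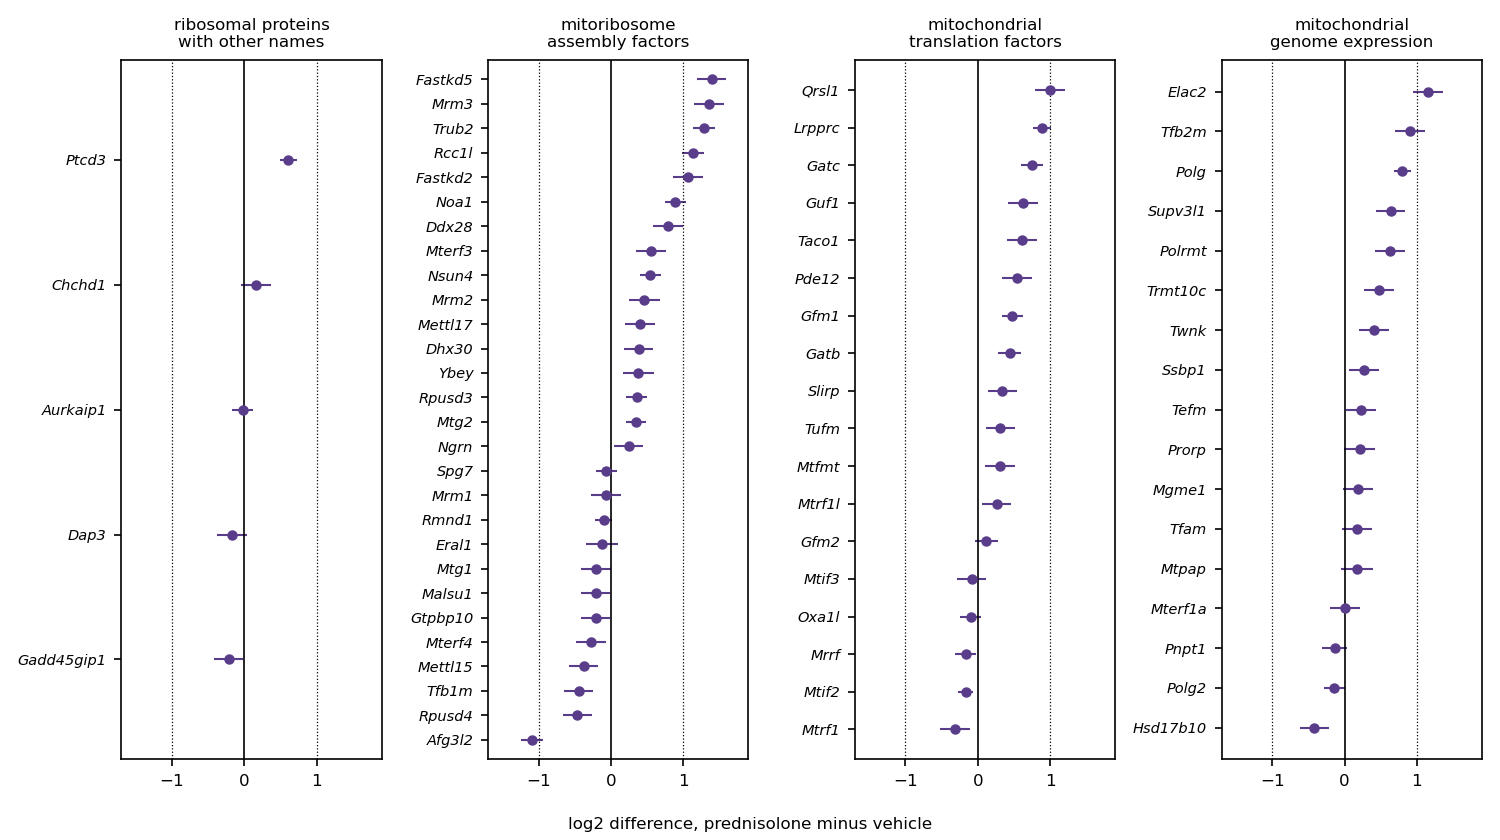
Log2 difference (prednisolone minus vehicle) of single genes in 4 lists around the mitoribosome; points are genes, bars the software's technical error and dotted lines 2-fold. In the 3 right-hand panels 16 of 28, 13 of 18 and 14 of 17 points lie above 0, where 50.1% of all genes do, with Fastkd5 and Mrm3 highest and Afg3l2 lowest.

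Promoter sequences of the members were searched for the letters of 6 known motifs. RefSeq promoter sequences (build GRCm38.p6) were at hand for 69 of the 78 members, and the 250 bases before each start were searched on both strands. The letters CCGGAAG, the core bound by ETS factors such as GABP, were in 18 of 69 members (26.1%), compared with 7.83% of all 27025 genes and 15.7% of 9601 measured genes. The cytosolic ribosomal protein genes held them as often (18 of 57, 31.6%), and these letters were no more common in the mitochondrial ones. Members with these letters had a median difference of 0.22 (18 genes) and members without them 0.29 (46 genes).

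The E-box CACGTG was in 5 of 69 members (7.25%; 9.64% of measured genes): Mrpl2 (0.37), Mrpl20 (1.12), Mrpl36 (1.02, flagged), Mrpl37 (0.71) and Mrps18c (0.01). The NRF1 motif (the 10-letter palindrome of the NRF1 consensus) was in 3 (4.35%; 1.81% of measured genes), Mrpl9 (−0.27 ± 0.14), Mrpl32 (−0.29) and Mrpl39 (−0.43), all lower with prednisolone. The Sp1 letters GGGCGG were in 33 of 69 members (47.8%; 60.5% of measured genes) and the CCAAT box, CCAAT, in 25 (36.2%; 40.3% of measured genes). Over all measured genes the median was 0.06 for both the 926 genes with the E-box and the 174 with the NRF1 letters. The palindromic glucocorticoid response element was in none of the 69 windows and in 9 of the 27025 genes. A match describes letters only, and a window without one says nothing about the factor.

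Promoters are shown for the highest member of each subunit, the lowest of the small subunit, and Mrpl39, the lowest member with the NRF1 letters, so that the letters can be seen beside the values. Each is the 250 bases before the start, 5′ to 3′ on the gene's strand. Capitals mark the E-box, the NRF1 letters and CCGGAAG only, and Sp1 and CCAAT letters are left in lower case. For Mrpl20 (chr4:155802628-155802877, plus strand) the capitals are the E-box, from 33 to 28 bases before the start. For Mrpl39 (chr16:84735245-84735494, minus strand) they are the NRF1 letters, from 125 to 116 bases before it. The windows of Mrps18b (chr17:35916441-35916690, minus strand) and of the upstream start of Mrps16 (chr14:20393635-20393884, minus strand) held neither the E-box, the NRF1 letters nor CCGGAAG. A further listed start of Mrps16, downstream, has CCGGAAG on the opposite strand from 74 to 68 bases before it.
Mrpl20 promoter: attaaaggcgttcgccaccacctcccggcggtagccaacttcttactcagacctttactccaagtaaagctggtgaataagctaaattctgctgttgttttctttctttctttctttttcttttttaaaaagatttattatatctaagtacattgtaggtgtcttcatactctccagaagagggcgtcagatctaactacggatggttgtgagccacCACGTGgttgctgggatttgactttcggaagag
Mrps18b promoter: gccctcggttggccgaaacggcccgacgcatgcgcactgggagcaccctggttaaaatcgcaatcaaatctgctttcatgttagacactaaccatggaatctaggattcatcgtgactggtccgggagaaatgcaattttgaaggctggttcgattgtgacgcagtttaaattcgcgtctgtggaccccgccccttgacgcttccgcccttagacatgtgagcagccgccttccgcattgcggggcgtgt
Mrpl39 promoter: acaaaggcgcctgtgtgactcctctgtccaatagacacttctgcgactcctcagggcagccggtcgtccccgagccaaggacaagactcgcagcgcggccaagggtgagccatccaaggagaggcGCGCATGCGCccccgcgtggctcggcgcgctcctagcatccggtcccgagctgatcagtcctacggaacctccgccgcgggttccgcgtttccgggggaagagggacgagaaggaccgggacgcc
Mrps16 promoter: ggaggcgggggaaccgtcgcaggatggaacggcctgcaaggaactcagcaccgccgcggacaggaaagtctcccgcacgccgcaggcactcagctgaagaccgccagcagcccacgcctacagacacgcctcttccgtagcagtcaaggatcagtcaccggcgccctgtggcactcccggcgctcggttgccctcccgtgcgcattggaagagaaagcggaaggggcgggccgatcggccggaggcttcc
The GC content of these windows was 41.6% for Mrpl20, 54.8% for Mrps18b, 67.2% for Mrpl39 and 68.0% for Mrps16.

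Many members lie head to head with another gene, their starts facing away from each other within 1000 bases. This held for 26 of 69 members (37.7%), compared with 12.2% of all genes in the promoter table and 19.6% of the measured genes. In 1 pair both genes are members. Mrpl46, of the large subunit, and Mrps11, of the small subunit, start 42 bases apart on opposite strands, and they were 0.35 ± 0.20 and 0.42 ± 0.20. Mrpl43 (0.35) starts 116 bases from Twnk (0.40), the gene of the helicase that unwinds mitochondrial DNA. Mrps12 (0.50) starts 147 bases from Sars2 (0.39), which encodes the mitochondrial seryl-tRNA synthetase. In these 3 pairs both genes act in mitochondrial gene expression and both were higher.
The bases between the starts are shown 5′ to 3′ on the member's strand, from chr7:78783090-78783130, minus strand for Mrpl46, chr19:45006443-45006557, minus strand for Mrpl43 and chr7:28741822-28741967, minus strand for Mrps12. Capitals mark CCGGAAG, which occurs 2 times between Mrpl43 and Twnk and not in the other stretches.
Mrpl46 to Mrps11: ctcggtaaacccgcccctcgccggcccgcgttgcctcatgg
Mrpl43 to Twnk: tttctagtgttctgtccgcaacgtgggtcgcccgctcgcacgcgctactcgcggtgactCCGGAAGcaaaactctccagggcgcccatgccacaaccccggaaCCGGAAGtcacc
Mrps12 to Sars2: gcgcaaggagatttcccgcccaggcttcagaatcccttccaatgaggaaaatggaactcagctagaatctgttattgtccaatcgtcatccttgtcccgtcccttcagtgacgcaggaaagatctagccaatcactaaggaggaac

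Shared start regions did not mean shared differences in general. Of 24 pairs with both values, 15 were above 0 in both genes, 1 was below 0 in both and 8 had opposite signs. Taken alone, the member was above 0 in 20 of these pairs and the neighbour in 18, so the count of 15 says little about shared differences. Pearson's r over the pairs was 0.22 and Spearman's rho 0.34, given as a description over pairs on the same 2 arrays. Mrpl37 (0.71) and its neighbour Cyb5rl (1.60) were the pair with the highest neighbour, and Mrpl2 (0.37) faced Klc4 at −1.39. Mrps18b (0.91) lay 756 bases from Ppp1r10 (0.26), and Mrpl14 (−0.45) lay 131 bases from Tmem63b (0.25).

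**Figure D4:**
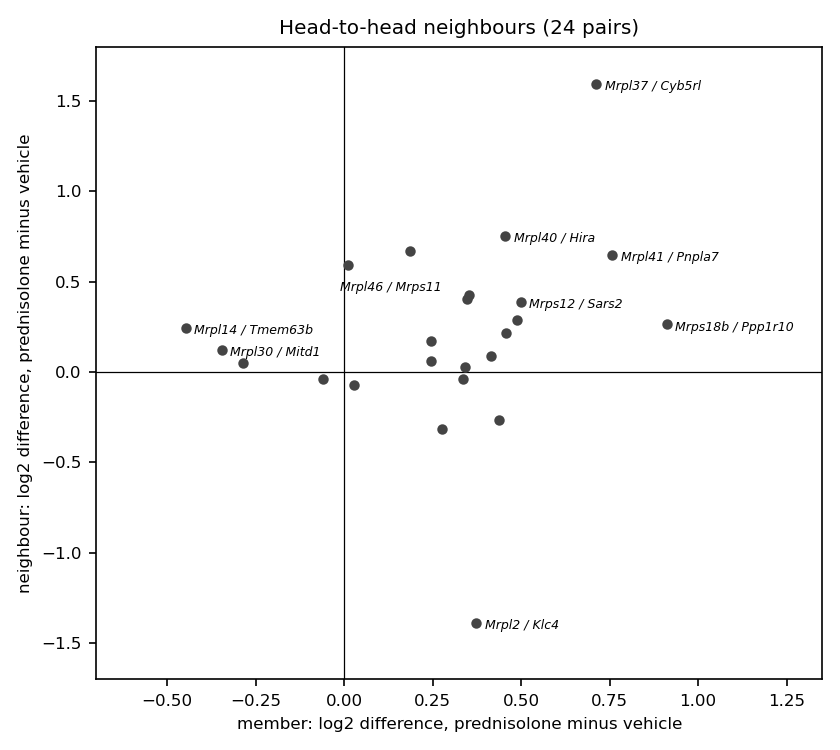
Log2 difference (prednisolone minus vehicle) of each member (horizontal axis) against that of its head-to-head neighbour (vertical axis); each of the 24 points is a pair of genes. Both genes lie above 0 in 15 pairs, where the member does in 20 and the neighbour in 18. Mrpl37 with Cyb5rl and Mrpl2 with Klc4 lie farthest from the rest.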

How the data were processed

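Mouse CD8 T cells were profiled on 2 Agilent 1-colour arrays, 1 per condition. The deposited scanner files hold spot intensity values from Agilent Feature Extraction 12.0.3.1, background-subtracted and detrended within the array, per the file headers. Other deposited columns hold yes-or-no flags. A deposited table of intensity values is the same signal multiplied by a constant per array (0.792 vehicle, 0.858 prednisolone); its scale is linear, it is uncentred (medians 16.2 and 16.4), and the sources used here do not say how the constants were chosen. The array design names build mm9. Having only 2 arrays limits precision.

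Left out were control spots and those carrying an outlier flag on either array (4270 on vehicle and 5291 on prednisolone, of 59305), and log2 intensities were centred on the 75th percentile. Spots of a probe were averaged, and a gene is the mean of its probes well above background on both arrays; intensity units printed for genes with several probes are geometric means. No spot was saturated. Accessions named 33767 of 56605 probes through RefSeq (GRCm38.p6). Errors combine the software's error of both arrays, treating probes as independent. With 1 array per condition there was no test and no leave-one-out.

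The members and lists were chosen with earlier results of these data known. Genes named are the 5 highest and 5 lowest members of each subunit, members 2-fold apart, 15 anchors, the 3 highest and 2 lowest of each list, and members without a value; others were named after their values were seen. The steps were tested on simulated data. Normexp (limma 3.58.1, offset 50) used the median spot signal, since the planned mean signal is not a column of these files. Python 3.11.15, pandas 2.3.3 and numpy 2.4.6 were used.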

Additional observations from a re-analysis of the deposited data

How the results depend on the processing

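Scaling on the 8 spike-in probes in place of the 75th percentile adds 0.23 to every gene. It gave medians of 0.54 for the large subunit, 0.50 for the small subunit, 0.59 for assembly factors, 0.56 for translation factors, 0.46 for genes of mitochondrial genome expression and 0.15 for cytosolic ribosomal proteins. Under it 3 members were at least 2-fold higher (9.55% of all genes, with 4.06% at least 2-fold lower), 28 at least 1.5-fold higher (24.8% of all genes) and 0 at least 1.5-fold lower (9.36%). Keeping spots with an outlier flag gave 2 members of 78 at least 2-fold higher (5.84% of all genes). Keeping those flagged for the local background only, an alternative chosen after seeing the data, gave the same count and share. Both put the large minus small subunit median at 0.065. That difference was 0.018 with normexp and 0.012 with genes placed by structure. The stricter filter on dim probes took the assembly factor median to 0.17, with fewer genes (19). The cytosolic ribosomal protein median was −0.13 without scaling, −0.034 with array median scaling, −0.14 with the 75th percentile over detected probes and 0.0042 with quantile normalization. What causes the differences under normexp and quantile normalization was not tested. All other medians and counts stayed within 1.5 times their value under these settings, no filter on dim probes, the brightest probe and the deposited table. Of the 45 genes named by the rules given above, all 45 moved beyond their technical error under spike-in scaling and 7 under normexp. Under other settings 5 values did so. Genes named after their values were seen are outside this count, among them Rcc1l, which moved from 1.14 to 0.78 with normexp. No member was well above background on 1 array only, so no bound could be added. No leave-one-out and no paired analysis was possible because each condition has 1 array. Having 1 array per condition limits every result, and low signal over background also limits the dim listed genes, several of which moved below 2-fold with normexp.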
